A study of Mus musculus with 10 samples.

Results

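Transcripts of the fibroblast growth factor (FGF) family were followed here in the mouse uterus on the day before implantation begins. The set held 6 ligand genes, Fgf1, Fgf2, Fgf7, Fgf9, Fgf10 and Fgf18, and the 4 receptor genes, Fgfr1, Fgfr2, Fgfr3 and Fgfr4. They were taken by symbol, so that 10 of the 45706 genes in the count table were members. Uterine RNA was sequenced from 5 control mice and 5 mice with deletion of Arid1a, which encodes a DNA-binding subunit of the SWI/SNF chromatin remodelling complex. All mice were pregnant adult females at gestation day (GD) 3.5, on a mixed background of C57BL/6 and several 129 substrains, and both groups were homozygous for the floxed Arid1a allele. Control mice were Arid1a f/f without Cre, and knockout mice were Ltf iCre/+ Arid1a f/f. In the knockouts the lactoferrin locus drives an improved Cre recombinase in the endometrial epithelium of mature females. The authors state that this Cre has also been reported in neutrophils and further myeloid cells. They could not exclude a part of Arid1a deletion in those cells. The Cre allele and the deletion were present together, so their effects cannot be told apart. RNA came from a piece of whole uterus, with epithelium, stroma, muscle, vessels and immune cells mixed, and each library is labelled as a separate uterus.

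FGF ligands bind receptor tyrosine kinases on the cell surface together with heparan sulfate, and the receptors pass the signal through the adaptor FRS2 to RAS and the ERK kinases. In the uterus before implantation, FGFs secreted by the stroma signal to receptors on the epithelium and promote its proliferation. Progesterone limits this signal through the stromal transcription factor HAND2, which represses several FGF genes. FGF7 and FGF10 act mainly on the splice form of FGFR2 that epithelial cells make, FGF9 and FGF18 act mainly on the forms made by mesenchyme, and FGF1 binds receptors of both kinds.

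Fgf9, which encodes a secreted FGF made by endometrial cells, was higher in the knockout uterus and was the only member past the threshold of the test across all genes. Its level was 2.58-fold that of controls (95% interval 1.57 to 4.25). The other 9 members did not pass. Among them Fgf18 and Fgfr4 had higher means in knockouts and Fgf1 a lower mean, each with an interval of the log2 fold change that lay to 1 side of 0. Fgfr2, the most abundant receptor transcript, had nearly the same mean in both genotypes but was spread far more widely among the knockout uteri. Values are given as CPM, the count of a gene scaled to a common library size that was normalized with the trimmed mean of M-values (TMM). Adjusted p-values follow Benjamini and Hochberg over all genes tested in edgeR's quasi-likelihood fit, with a threshold of 0.05.

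Fgf9 lies on chromosome 14 (GRCm38, chr14:58070547-58112720, + strand), with no exon bases shared with another annotated gene. The 250 bases before the RefSeq start of Fgf9 (build GRCm38.p6, chr14:58072436-58072685, + strand) are shown because Fgf9 was the only member called. The capitals mark CG dinucleotides. An annotated transcript with an earlier start has its first intron here.

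Fgf9: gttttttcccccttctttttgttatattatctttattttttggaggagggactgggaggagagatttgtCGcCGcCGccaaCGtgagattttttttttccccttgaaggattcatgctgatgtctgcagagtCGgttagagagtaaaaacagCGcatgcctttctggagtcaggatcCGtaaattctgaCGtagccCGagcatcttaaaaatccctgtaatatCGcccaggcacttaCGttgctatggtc

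This stretch held 11 CG dinucleotides, against a median of 6 over all promoters of the RefSeq table, and 44.8% G and C, against a median of 52.4%. Neither strand held the GC box GGGCGG, the CCAAT box CCAAT, the TATA box TATAAA or the AP-1 site TGANTCA. Of the 32851 promoters of the same length, 32.7%, 33.8%, 12.4% and 6.75% held these motifs, in that order. The absence of a match says only that these letters are not in this stretch.

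The 10 libraries held between 59296537 and 72702411 counts in genes, and all 10 members passed the filter of a mean of 1 count per library. Arid1a itself stood at 213 ± 22.9 CPM (SD, n = 5) in controls and 185 ± 15.9 CPM in knockouts, with a log2 fold change of -0.20 (SE 0.09) and an adjusted p of 0.201 from edgeR's quasi-likelihood test. Ltf, whose locus carries the Cre, stood at 2.22 to 11.7 CPM in controls and 23.6 to 2831 CPM in knockouts (log2 fold change 7.23, edgeR adjusted p of 0.00920). In RNA of the whole uterus, fewer cells of a type and less RNA per cell cannot be told apart. Markers of some cell types differed between genotypes. Of all genes tested, 9.70% were called. Of 12 epithelial markers, 8 were called higher and none lower. Their summed level was 906 to 1197 CPM in controls and 1336 to 2895 CPM in knockouts. Of 8 endothelial markers, 6 were called lower, with sums of 844 to 1142 CPM in controls and 427 to 582 CPM in knockouts. The sum of 7 gland markers was 78.3 to 125 CPM in controls and 13.3 to 51.4 CPM in knockouts, where only Foxa2 passed the test and Prss28 and Prss29 were at 0 in some libraries of both genotypes. Sums of stromal markers, at 15733 to 22724 CPM and 13087 to 22295 CPM, overlapped. Of these 12 markers, 2 were called lower, and 10 had a log2 fold change below 0. Neutrophil markers, of which 2 of 6 were called higher, summed to 834 CPM in knockout uterus 5 and to 12.6 CPM or less in every other uterus. In the other lists, 2 of 8 natural killer and T cell markers and 1 of 5 mesothelial markers were called higher. Of 10 muscle markers, 1 was called lower, and all 10 had a log2 fold change below 0. Their sums were 7481 to 12630 CPM in controls and 3889 to 10111 CPM in knockouts. Of 5 oviduct and ovary markers, 1 was called lower and all 5 lay below 0. No marker of 8 for macrophages and leukocytes was called, but 7 lay above 0. Their sums were 327 to 618 CPM in controls and 477 to 1554 CPM in knockouts, highest in uterus 5. No marker of 5 tested for fat cells was called, and all 5 lay above 0. The part of these cell types in the results on FGF genes was not tested.

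**Figure D1:**
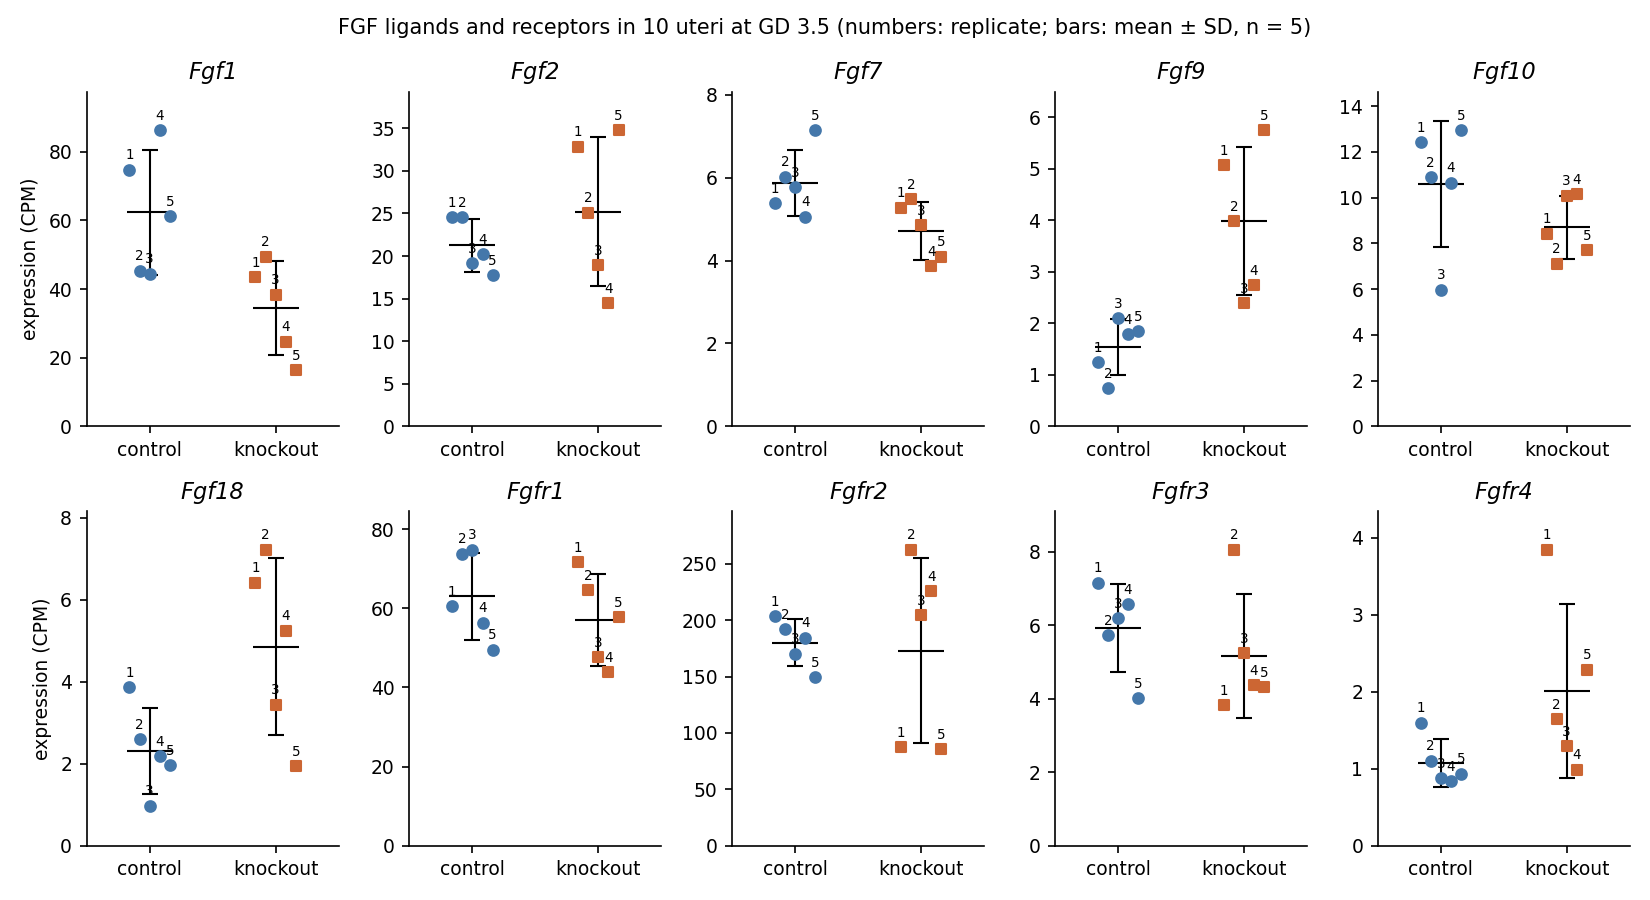
Expression of the 10 members (CPM, vertical axis starting at 0) in each of the 5 control uteri (circles) and 5 knockout uteri (squares), numbered by replicate, with bars for the mean and SD. The 5 knockout values of Fgf9, from 2.39 to 5.74 CPM, lie above the highest control, 2.10 CPM, whereas the knockout values of Fgfr2 lie in a high set from 204 to 263 CPM and a low pair at 85.7 and 87.4 CPM.

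Of the 10 members, 1 was called higher, none was called lower and 9 were not called. Of the 25146 genes tested, 9.70% were called, 5.19% higher and 4.51% lower. At an unadjusted p under 0.05, edgeR's test gave 3 members higher, Fgf9, Fgf18 and Fgfr4, and 1 lower, Fgf1, beside 26.2% of all genes tested. The log2 fold change was above 0 for 4 members and below 0 for 6, with a median of -0.10, and the median over all genes tested was 0.03. Only Fgf9 had no overlap between the genotypes, beside 10.7% of all genes tested. Nothing about the family as a whole is read from these counts. DESeq2, which called 16.3% of all genes tested, called 3 members, Fgf9 and Fgf18 higher and Fgf1 lower.

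Among the ligands, Fgf9 had 1.24, 0.739, 2.10, 1.79 and 1.85 CPM in control uteri 1 to 5. In knockout uteri 1 to 5 it had 5.06, 3.99, 2.39, 2.75 and 5.74 CPM. Every knockout uterus was above every control, and uteri 1 and 5 were the highest. The means were 1.54 ± 0.548 CPM (SD, n = 5) in controls and 3.99 ± 1.44 CPM in knockouts. The log2 fold change was 1.37 (SE 0.33), with an adjusted p of 0.0255 from edgeR's quasi-likelihood test and a p of 0.00794 in a two-sided exact permutation test, the smallest that 5 uteri against 5 can give. The counts behind these values ran from 53 to 397 per library. The call was close to the threshold. With edgeR the adjusted p of Fgf9 was 0.0562 without control 1, 0.0514 without control 2, 0.0514 without control 4 and 0.0509 without knockout 1, and it stayed under 0.05 in the other 6 fits that left out 1 uterus. Over those 10 fits the log2 fold change was 1.18 to 1.50. DESeq2 gave Fgf9 an adjusted p of 0.000487, and over all alternatives the range was 0.000487 to 0.0880. Without both knockout uteri 1 and 5, where epithelial markers were highest, the log2 fold change was 0.98 with an edgeR adjusted p of 0.0880. Those 2 uteri also held the highest Fgf9 values, so leaving them out could only lower the knockout mean.

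Fgf18, a ligand best known from bone and lung development, has its gene at chr11:33117430-33147400. It stood at 3.86, 2.59, 0.971, 2.19 and 1.97 CPM in control uteri 1 to 5. The knockout uteri had 6.41, 7.22, 3.43, 5.24 and 1.94 CPM. Knockouts 1, 2 and 4 were above every control, and knockouts 3 and 5 lay within the control range. The means were 2.32 ± 1.05 CPM and 4.85 ± 2.16 CPM, and the log2 fold change of 1.06 (SE 0.40), a 2.09-fold level with an interval of 1.14 to 3.83, had an adjusted p of 0.116 with edgeR's quasi-likelihood test and an exact permutation p of 0.0714. The call depended on the test and on a library. DESeq2 gave Fgf18 an adjusted p of 0.0404, and edgeR without knockout uterus 5 gave 0.0457, in a range of 0.0404 to 0.217 over all alternatives.

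Fgf1, which encodes a ligand without a signal peptide that binds every FGF receptor, was the most abundant ligand transcript and had the lowest fold change of the members. Its gene is on chromosome 18 (chr18:38838673-38929472). In control uteri 1 to 5 it stood at 74.8, 45.4, 44.5, 86.2 and 61.2 CPM. In knockout uteri it stood at 43.5, 49.4, 38.3, 24.7 and 16.3 CPM. Knockouts 1, 3, 4 and 5 were below every control, and knockout 2 lay between the controls. The means were 62.4 ± 18.2 CPM and 34.4 ± 13.7 CPM. The log2 fold change was -0.86 (SE 0.29), or 0.552 of the control level (interval 0.355 to 0.857). The adjusted p was 0.0859 with edgeR's quasi-likelihood test and the exact permutation p was 0.0317. Fgf1 passed with DESeq2 (adjusted p of 0.0288, in a range of 0.0288 to 0.185 over all alternatives).

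Fgf7 and Fgf10 encode the related ligands that stroma sends to epithelial FGFR2. Fgf7 (chr2:126034658-126091185) had 5.38, 6.02, 5.77, 5.06 and 7.13 CPM in controls 1 to 5 and 5.27, 5.48, 4.86, 3.86 and 4.09 CPM in knockouts 1 to 5. The 3 lowest values were in knockouts 3, 4 and 5, and the other 2 knockouts lay within the control range. Its log2 fold change of -0.32 (SE 0.16) had an adjusted p of 0.238 with edgeR's quasi-likelihood test, beside an exact permutation p of 0.0397. The interval, 0.629 to 1.02 of the control level, includes no difference. For Fgf10 (chr13:118669791-118792115), every knockout value, from 7.11 to 10.2 CPM, lay within the control range of 5.97 to 12.9 CPM. Fgf10 had a log2 fold change of -0.28 (SE 0.20, edgeR adjusted p of 0.428), with an interval of 0.604 to 1.12 of the control level.

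Fgf2, a ligand stored on heparan sulfate in the matrix, had values of 17.8 to 24.6 CPM in controls. The knockout uteri had 32.8, 25.1, 18.9, 14.5 and 34.7 CPM. Knockouts 1, 2 and 5 were above every control and knockout 4 was below every control. The log2 fold change of 0.25 (SE 0.22) had an adjusted p of 0.534 with edgeR's quasi-likelihood test, and its interval was 0.849 to 1.66 of the control level. Without both knockout uteri 1 and 5 the log2 fold change of Fgf2 was -0.12. Fgf2 (chr3:37348346-37410108) shares 640 exon bases with Nudt6 on the other strand and 255 with Gm43439 on its own, and since the sources used here do not say whether strand was used in counting, reads from Fgf2 and Nudt6 may not be told apart.

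**Figure D2:**
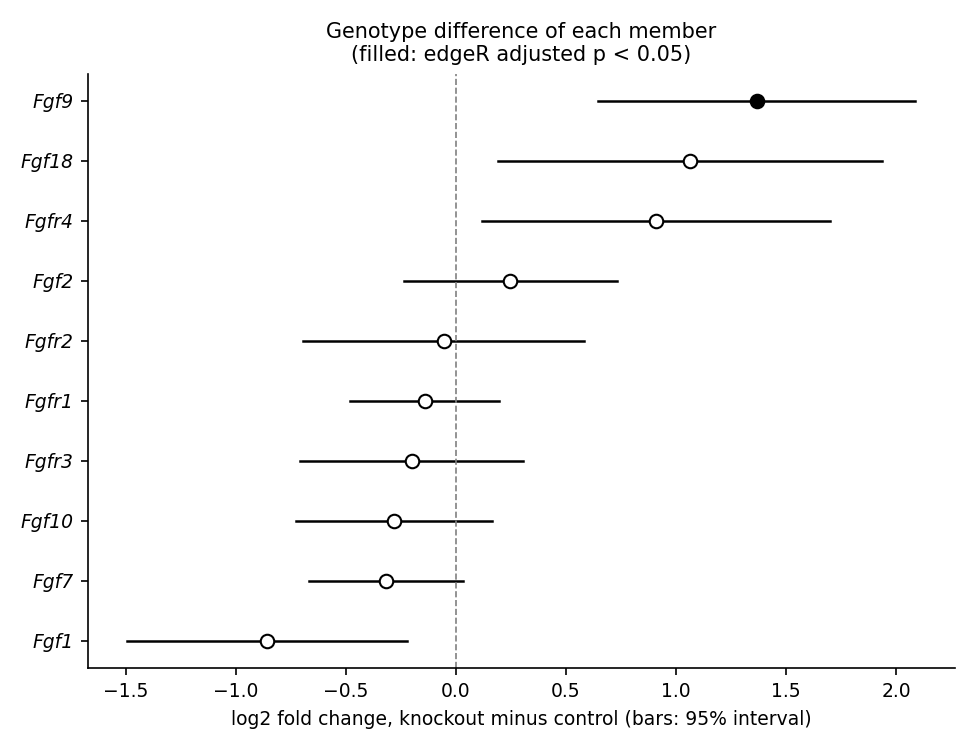
Log2 fold change of each member, knockout minus control (horizontal axis), with its 95% interval as a bar and a filled point where the edgeR adjusted p was under 0.05. Fgf9 at 1.37 has the only filled point, and the intervals of Fgf18, Fgfr4 and Fgf1 also lie to 1 side of 0.

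Fgfr2 encodes the receptor for FGF7 and FGF10 in epithelium and, in another splice form, for other FGFs in mesenchyme. It had 204, 192, 170, 185 and 149 CPM in control uteri 1 to 5. The knockout uteri had 87.4, 263, 204, 226 and 85.7 CPM. No knockout value lay within the control range, since uteri 1 and 5 were below every control and uteri 2, 3 and 4 were above every control, uterus 3 by less than 1 CPM. The means were 180 ± 20.9 CPM and 173 ± 81.8 CPM, with a log2 fold change of -0.06 (SE 0.29), an adjusted p of 0.930 from edgeR's quasi-likelihood test and an exact permutation p of 0.524. The mean therefore describes none of the knockout uteri. On the log2 scale the SD of Fgfr2 was 0.173 in controls and 0.782 in knockouts. The fold change moved from -0.26 to 0.11 when single uteri were left out. Without both knockout uteri 1 and 5 it was 0.36 with an edgeR adjusted p of 0.0788. Those 2 uteri held the lowest Fgfr2 values, so leaving them out could only raise the knockout mean.

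Summed reads cannot separate the splice forms of Fgfr2. The annotated gene model (chr7:130162451-133123350) runs through 69 other genes because of long read-through transcripts, and 314 of its exon bases are shared with 1 of them, Ctbp2, on the same strand. Reads in those bases may be split or dropped, so the level of Fgfr2 carries that uncertainty in every library.

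The other receptors were less abundant. Fgfr1 (chr8:25513654-25575718), the main receptor of mesenchymal cells, had 49.6 to 74.8 CPM in controls and 71.6, 64.5, 47.6, 43.8 and 57.8 CPM in knockouts. The ranges overlapped, and the log2 fold change of -0.14 (SE 0.16) had an adjusted p of 0.623 from edgeR's quasi-likelihood test. Its interval of 0.716 to 1.15 of the control level is the narrowest of the 4 receptors. Fgfr3 (chr5:33721674-33737068) had 4.02 to 7.16 CPM in controls and 3.83, 8.06, 5.25, 4.37 and 4.31 CPM in knockouts. Its highest and lowest values were both in knockouts, in uteri 2 and 1, and the log2 fold change of -0.20 (SE 0.23) had an edgeR adjusted p of 0.643. Fgfr3 shares 998 exon bases with G630022F23Rik on the other strand, and Fgf10 and Fgfr1 share 123 and 164 bases with antisense genes.

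Fgfr4, a receptor with most of its known roles in liver and muscle, was the least abundant member (chr13:55152640-55168759). Control uteri 1 to 5 had 1.59, 1.10, 0.877, 0.838 and 0.933 CPM. Knockout uteri had 3.84, 1.64, 1.29, 0.988 and 2.29 CPM. Knockouts 1, 2 and 5 were above every control and the other 2 lay within the control range. The log2 fold change of 0.91 (SE 0.36), a 1.88-fold level with an interval of 1.08 to 3.25, had an adjusted p of 0.137 from edgeR's quasi-likelihood test and an exact permutation p of 0.0714. The highest values were again in knockout uteri 1 and 5, and without both of them the log2 fold change of Fgfr4 was 0.29.

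**Figure D3:**
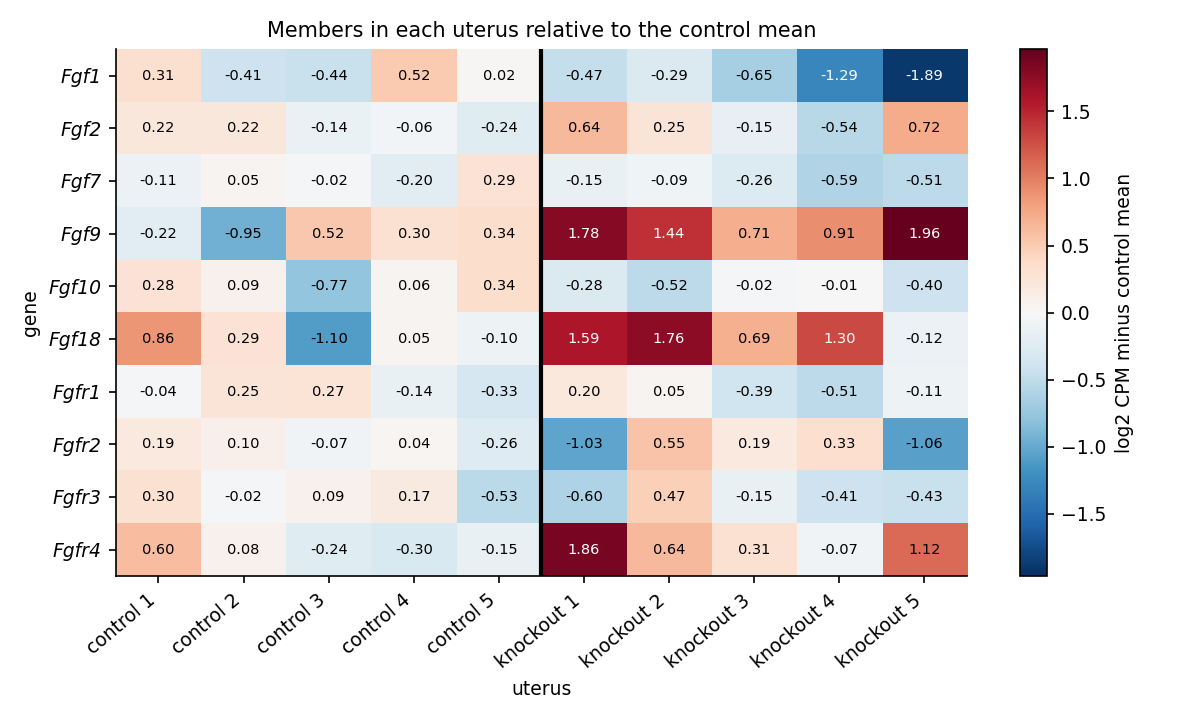
Difference of each member from its control mean (log2 CPM, colour and printed value) in each of the 10 uteri, with controls left of the line and knockouts right of it. The Fgf9 row is above 0 in all 5 knockout uteri, from 0.71 to 1.96, and the Fgfr2 row is at -1.03 and -1.06 in knockouts 1 and 5 and between 0.19 and 0.55 in knockouts 2, 3 and 4.

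For 9 of the 10 members at least 1 knockout uterus lay outside the control range, with Fgf10 as the exception, beside 88.0% of all genes tested. The SD of log2 CPM was larger in knockouts than in controls for 8 members, the exceptions being Fgf9 and Fgf10, while 68.5% of all genes tested had a larger SD in knockouts. In knockout uterus 2, 6 members lay above every control and none below, where 24.2% of all genes tested lay above and 21.7% below. In knockout uterus 4, 3 lay above and 4 below, where 27.3% and 22.7% of all genes did. Uteri 1 and 5 both had Fgf9, Fgf2 and Fgfr4 above every control and Fgf1 and Fgfr2 below. They parted at Fgf18, which was 6.41 CPM in uterus 1 and 1.94 CPM in uterus 5.

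Levels can be compared between genes only per length, and for this the CPM of each gene was divided by the length of its merged exons in kilobases. In controls Fgfr2 came first with 17.4 ± 2.03 CPM per kb (SD, n = 5), followed by Fgf1 with 11.4 ± 3.34 and Fgfr1 with 6.38 ± 1.12. Fgf2 at 3.13 ± 0.462, Fgf10 at 2.30 ± 0.599, Fgf18 at 1.95 ± 0.884 and Fgf7 at 1.81 ± 0.245 CPM per kb formed a middle group. Fgfr3 at 0.829 ± 0.167, Fgf9 at 0.332 ± 0.118 and Fgfr4 at 0.302 ± 0.0877 CPM per kb were lowest, and the highest mean was 57.8-fold the lowest. Of the 9 pairs of neighbours in this order, 5 overlapped among control uteri, namely Fgfr2 with Fgf1, Fgf2 with Fgf10, Fgf10 with Fgf18, Fgf18 with Fgf7, and Fgf9 with Fgfr4. The ligand called higher was thus the least abundant of the 6 in controls, and in knockouts it stayed so at 0.857 CPM per kb. With the longest transcript as the length, Fgf7 and Fgf18 changed places, Fgfr2 stood at 40.7, Fgfr1 at 12.5 and Fgfr3 at 1.40 CPM per kb, and the highest mean was 126-fold the lowest.

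**Figure D4:**
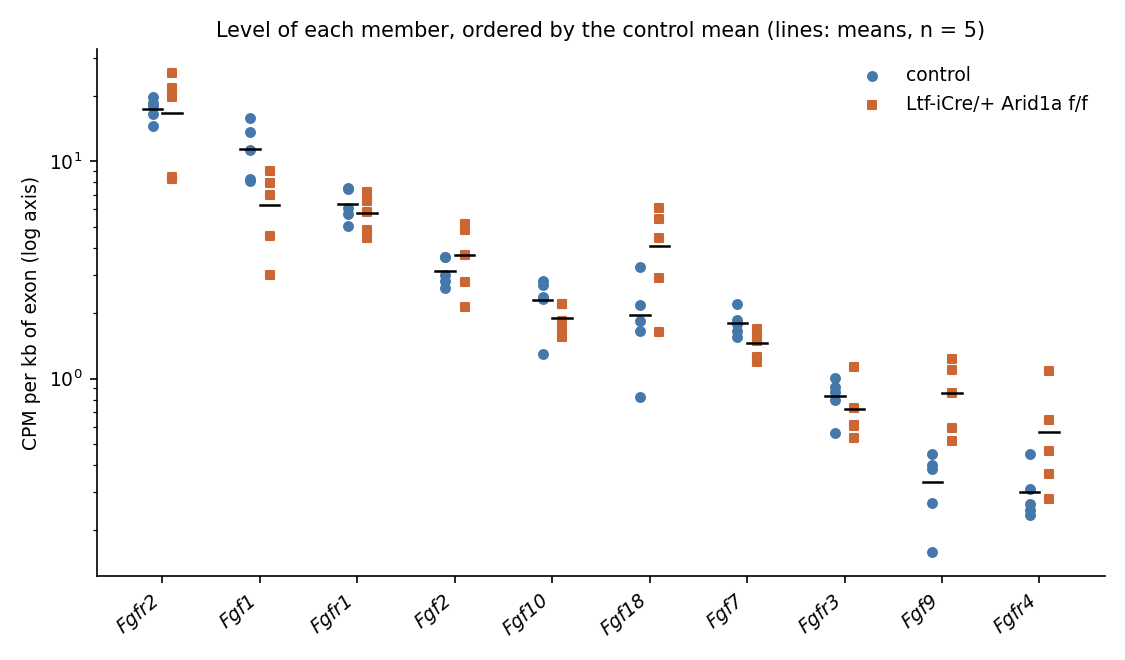
CPM per kilobase of merged exon (log axis) of each member in the 5 control uteri (circles) and 5 knockout uteri (squares), ordered by the control mean, with lines for the means. Control means run from 17.4 for Fgfr2 to 0.302 for Fgfr4, and Fgf18 has rank 6 in controls and rank 4 in knockouts.

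Fgf9 was compared with other genes by the correlation of log2 CPM over the 10 libraries after removing each genotype's mean, among 14540 genes with a mean of at least 100 counts. The most alike were Fmr1 (r of 0.939), Pggt1b (0.889) and E330013P04Rik (0.888). Fmr1 had a log2 fold change of 0.13 and was not called. Since genotype means were removed first, the likeness can only be among uteri of a genotype. These coefficients are the highest of many and describe these libraries only.

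The rest of the pathway was read from 9 lists with 105 genes, of which 97 were tested. Of these, 14 were called, 8 higher and 6 lower, which is 14.4% beside 9.70% of all genes tested, and their median log2 fold change was 0.02 beside 0.03. The count fell to 9 without any of control uteri 1 to 4, and was 16 without both knockout uteri 1 and 5. Fgf3, Fgf4, Fgf6, Fgf8, Fgf15 and Fgf21 were below the filter.

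The other secreted FGFs were led by Fgf16, a gene of the same subfamily as Fgf9. It had between 0.0139 and 0.0979 CPM in controls, from 1 to 7 counts, and 2.27, 0.963, 0.654, 0.973 and 0.579 CPM in knockout uteri 1 to 5, from 40 to 145 counts. No knockout uterus overlapped the controls. Its log2 fold change was 4.27 (SE 0.54) with an adjusted p of 0.00161 from edgeR's quasi-likelihood test, and since the controls held so few counts the size depends on the prior count of the fit. Without both knockout uteri 1 and 5 the log2 fold change of Fgf16 was 3.94. The other 5 secreted FGFs tested, Fgf5, Fgf17, Fgf20, Fgf22 and Fgf23, were not called. The 4 intracellular FGF homologous factors, which do not act through FGF receptors, were not called either, and the most abundant, Fgf11, had a log2 fold change of 0.13.

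Among 11 co-receptors, binding proteins and decoys, Ncam1 was the only gene called. It encodes a cell adhesion molecule that binds FGF receptors and is best known from neural tissue. Ncam1 stood at 23.2 to 28.8 CPM in controls and 41.7 to 97.2 CPM in knockouts, with a log2 fold change of 1.31 (SE 0.20) and an adjusted p of 0.00367 from edgeR's quasi-likelihood test. It shares 417 exon bases with a gene on the other strand. Nrp1, a semaphorin and VEGF receptor and the most abundant of this list, had a log2 fold change of -0.42 and an edgeR adjusted p of 0.0634. It passed with DESeq2 (adjusted p of 0.0310) and with upper quartile normalization in edgeR (0.0416). In edgeR it also passed without control uterus 5 (0.0425), without knockout uterus 1 (0.0189) and without both knockout uteri 1 and 5 (0.0114). Over all alternatives the adjusted p of Nrp1 ran from 0.0114 to 0.131. The summed level of the endothelial markers was lower in each knockout uterus than in any control.

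Heparan sulfate genes, which make and carry the sugar chains that hold FGFs at their receptors, were called in both directions. Of 20 genes, 2 were called higher and 2 lower, where 9.70% of all genes tested were called. Hs6st1, a 6-O-sulfotransferase, was 2.08-fold higher, with 49.2 to 60.5 CPM in controls and 68.6 to 162 CPM in knockouts (log2 fold change 1.05, SE 0.23, edgeR adjusted p of 0.0163). Its values in knockout uteri 1 and 5, 162 and 158 CPM, were the highest, and without both the log2 fold change was 0.57. Sdc1, an epithelial cell surface carrier, had a log2 fold change of 0.51 (edgeR adjusted p of 0.0432), and was past the threshold in 3 of the 10 fits that left out 1 uterus. The values of Sdc1 were likewise highest in knockout uteri 1 and 5, at 160 and 159 CPM, and without both its log2 fold change was 0.24 with an edgeR adjusted p of 0.0792. These 2 uteri also had the highest sums of epithelial markers. Gpc3, a glypican, fell from 93.8 ± 10.2 CPM to 41.8 ± 16.6 CPM (log2 fold change -1.17, SE 0.24, edgeR adjusted p of 0.0141). Hs3st1, a 3-O-sulfotransferase, fell from 11.2 ± 2.33 CPM to 6.58 ± 0.744 CPM (log2 fold change -0.77, edgeR adjusted p of 0.0151). These 4 called genes were also the only 4 of the 20 without overlap between genotypes, beside 10.7% of all genes tested. Call and lack of overlap rest on the same values, so the second adds no separate support.

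Of 19 adaptors and members of the MAPK relay, 2 were called lower and 1 was called higher. Frs2, the docking protein of FGF receptors, had 131 to 152 CPM in controls and 80.5 to 112 CPM in knockouts (log2 fold change -0.50, SE 0.09, edgeR adjusted p of 0.00734). Gab1, a scaffold that joins receptors to SHP2 and PI3 kinase, had 63.2 to 76.8 CPM in controls and 42.2 to 53.5 CPM in knockouts (log2 fold change -0.57, SE 0.08, edgeR adjusted p of 0.00280). Both stayed past the threshold whichever single uterus was left out. These adaptors also serve other receptors, among them those of EGF and HGF. Hras rose by 0.40 on the log2 scale (edgeR adjusted p of 0.0464) and was past the threshold in 2 of the 10 fits that left out 1 uterus and not without both knockout uteri 1 and 5 (0.0535). The other 16 genes were not called.

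Genes that ERK signalling induces gave a mixed picture. Of 10 feedback inhibitors, only Dusp5, an ERK phosphatase, was called, with 3.29 to 5.25 CPM in controls and 4.50 to 9.91 CPM in knockouts (log2 fold change 0.75, edgeR adjusted p of 0.0448). Dusp5 was past the threshold in 1 of the 10 fits that left out 1 uterus. Of 10 ERK-responsive transcription factors and cell cycle genes, only Etv1 was called, and it fell from 5.71 ± 0.387 CPM to 3.72 ± 0.354 CPM (log2 fold change -0.62, SE 0.14, edgeR adjusted p of 0.0187). In each list, 6 of the 10 genes had a log2 fold change above 0 and 4 below. The following genes were chosen after their values were seen. Dusp6, a standard readout of FGF and ERK activity, was at 29.7 to 42.5 CPM in controls and at 74.4, 41.5, 34.4, 35.7 and 66.8 CPM in knockout uteri 1 to 5. Etv4, another such readout, was at 1.51 to 2.01 CPM in controls, at 12.5 CPM in knockout uterus 1 and at 1.81 to 2.10 CPM in the other 4. Egr1, from the list of transcription factors, went the other way in knockout uterus 1. It was at 30.6 to 44.5 CPM in controls and at 14.0, 34.5, 20.9, 24.2 and 30.2 CPM in knockout uteri 1 to 5. None of these was called (edgeR adjusted p of 0.215 for Dusp6, 0.203 for Etv4 and 0.133 for Egr1).

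The splicing factors that choose between the exons of the epithelial and mesenchymal FGFR2 forms had a median log2 fold change of 0.40, with 5 of 6 above 0. This median does not show which form was favoured, and that was not tested. Only Rbm47, an epithelial RNA-binding protein, was called, with 37.2 to 44.2 CPM in controls and 49.6 to 95.7 CPM in knockouts (log2 fold change 0.63, edgeR adjusted p of 0.0379, past the threshold in 4 of the 10 fits that left out 1 uterus). Without both knockout uteri 1 and 5 the log2 fold change of Rbm47 was 0.38. Esrp1, a factor that favours the epithelial form, is also among the epithelial markers. It was at 59.1 to 68.9 CPM in controls and 57.1 to 133 CPM in knockouts, and was not called (edgeR adjusted p of 0.135). Esrp2 of the same list was at 18.4 to 21.2 CPM in controls and 21.2 to 39.4 CPM in knockouts. It was not called either (log2 fold change 0.44, edgeR adjusted p of 0.0994). Epithelial markers were higher in the same uteri, so a share of epithelial RNA and a level within epithelial cells cannot be told apart for these genes.

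The list of stromal regulators of FGF genes, which also holds the epithelial ligand gene Ihh, had the lowest list median, -0.29 over 11 genes. Of these, 1 was called higher and 1 lower. The 12 stromal markers had a median of -0.30, and 3 genes, Hand2, Hoxa10 and Hoxa11, are in both lists. Msx2, a homeobox gene that acts with Msx1 in uterine receptivity, had 1.80 to 4.60 CPM in controls and 28.3, 12.0, 5.61, 10.3 and 18.8 CPM in knockout uteri 1 to 5 (log2 fold change 2.50, SE 0.42, edgeR adjusted p of 0.00523). Ptch1, the receptor and target of hedgehog signalling from the epithelium, fell from 320 ± 30.3 CPM to 176 ± 67.1 CPM (log2 fold change -0.87, edgeR adjusted p of 0.0462) and was past the threshold in 3 of the 10 fits that left out 1 uterus. Without both knockout uteri 1 and 5 the log2 fold change of Ptch1 was -0.55. Hoxa10, the most abundant of the list, had a log2 fold change of -0.39 and was not called.

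The low values of Fgfr2 in knockout uteri 1 and 5 were met again in some of these regulators, which were likewise chosen after their values were seen. Msx2 of the same list went the other way, with its highest values in uteri 1 and 5. How many of all genes share the pattern of Fgfr2 was not counted. Ihh, the hedgehog ligand of the epithelium, was at 33.1 to 43.3 CPM in controls and at 14.9, 52.4, 48.2, 58.5 and 15.0 CPM in knockout uteri 1 to 5. As with Fgfr2, uteri 1 and 5 were below every control and uteri 2, 3 and 4 above every control. Hand2, the repressor of FGF genes in stroma, was at 97.4 to 115 CPM in controls and at 54.6, 118, 93.4, 102 and 73.1 CPM in knockouts. Gli1, a hedgehog target, was at 146 to 214 CPM in controls and at 54.6, 141, 205, 173 and 89.9 CPM in knockouts. In both, uteri 1 and 5 were the lowest of all 10. Unlike Fgfr2, Hand2 in knockout uterus 3 and Gli1 in knockout uterus 2 were also below every control. None of the 3 was called (edgeR adjusted p of 0.978 for Ihh, 0.331 for Hand2 and 0.370 for Gli1).

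**Figure D5:**
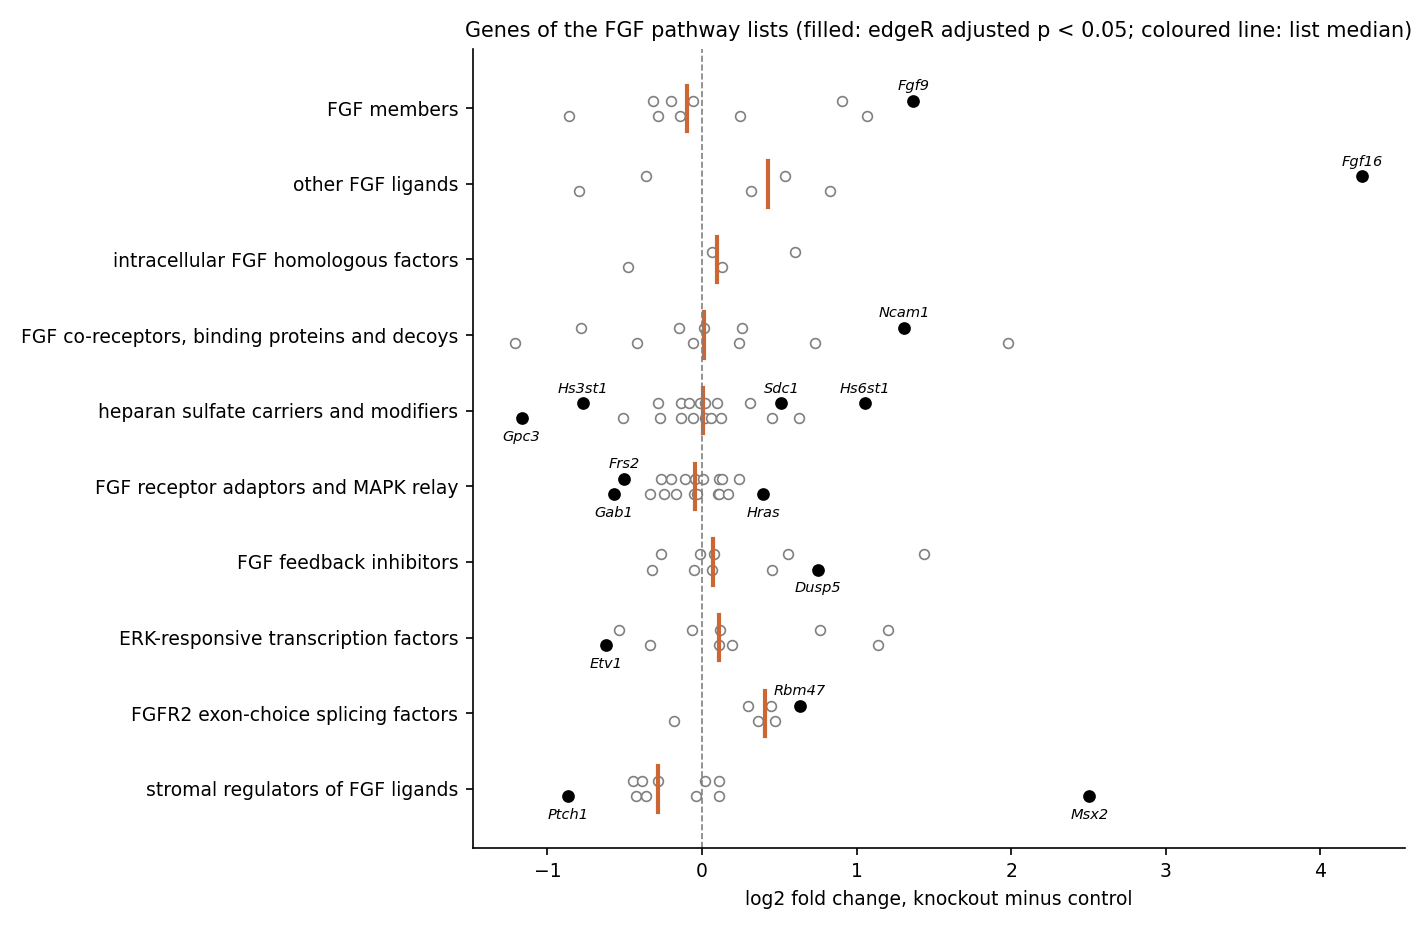
Log2 fold change, knockout minus control (horizontal axis), of every tested gene in the member list and the 9 pathway lists, with filled named points where the edgeR adjusted p was under 0.05 and a coloured line at each list's median. Called genes lie on both sides of 0 in 3 of the lists, and Fgf16 at 4.27 lies furthest from 0.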

How the data were processed

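Uterine RNA of 5 control and 5 knockout mice at GD 3.5 was sequenced as paired-end mRNA libraries with reads of 50 bp. The authors trimmed reads with cutadapt 1.18 and Trim Galore 0.6.4, checked them with FastQC 0.11.9, aligned them to GRCm38 with STAR 2.7.3a and counted reads per gene (GeneCounts), and they deposited 1 table of raw, unfiltered counts for 45706 Ensembl genes. Which annotation release was counted, and whether strand was used, is not given in the sources used here. Column names gave the sample of each column, and no 2 libraries were duplicates (chi-square of at least 36.1 per gene within a genotype).

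Symbols and coordinates came from a GENCODE annotation of GRCm38, which held 45143 of the genes, and promoter sequence came from RefSeq, which held 8 of the 10 members. The filter kept the 25146 genes with 1 count or more on average per library. The model was edgeR's quasi-likelihood fit (version 4.0.16 under R 4.3.3) after TMM normalization, with genotype as its single term and Benjamini-Hochberg adjusted p-values judged at 0.05. DESeq2 1.42.0 is the tool the authors used and was an alternative here. For each member, log2 CPM was also permuted over all 252 arrangements of 5 uteri against 5 (exact, two-sided, not adjusted). Intervals are 95% intervals of the edgeR fit. Scripts were tested on simulated data. Drawings were made with matplotlib 3.10.9.

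The members, the 9 pathway lists and the 11 marker lists were chosen with earlier results of these data known, so counts in them are a description. The named genes were all members, Arid1a, Ltf, every called gene of a pathway list (where it had 6 or fewer), its most abundant gene, and the 3 genes most like Fgf9. Dusp6, Etv4, Egr1, Esrp1, Esrp2, Ihh, Hand2 and Gli1 were named after their values were seen. The most abundant gene of 1 pathway list is not reported here. Alternatives were DESeq2, other normalizations, other filters, the replicate number as a block, leaving out each uterus, and leaving out knockout uteri 1 and 5 together. Those 2 uteri held the 2 highest knockout values of Fgf9, Fgf2, Fgfr4, Hs6st1, Sdc1 and Msx2, and the 2 lowest of Fgfr2. For these genes the direction of the shift was fixed by the choice of uteri.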

Additional observations from a re-analysis of the deposited data

Results flagged for a closer look

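None of the 20 groups formed by the 10 members in each genotype held a uterus far from the other 4. Dixon's test for 5 values was run on 64 groups, formed by the members and the pathway genes named by call or abundance. Of these, 7 held such a uterus. Other named genes, among them Ltf and Etv4, were not screened. Chance flags about 1 in 20 groups.

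In knockout uterus 1, Fgf16 stood at 2.27 CPM against 0.579 to 0.973 CPM in the other 4 knockouts. The splicing factor Rbm47 was at 95.7 CPM in the same uterus, against 49.6 to 59.7 CPM. Ccnd1, which encodes cyclin D1, was at 342 CPM there, against 118 to 155 CPM, and without this uterus its log2 fold change was below 0. In knockout uterus 5, Mbnl1 stood at 475 CPM against 360 to 392 CPM in the other knockouts. Among controls, uterus 4 had the lowest Etv1, 5.04 CPM against 5.71 to 5.97 CPM, and the highest Msx2, 4.60 CPM against 1.80 to 2.46 CPM. Control uterus 5 had the lowest Fgf11, at 6.39 CPM against 7.94 to 8.46 CPM. The cause of these deviations was not tested.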

How the results depend on the processing

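The count of members past the threshold was 1, and it was 3 with DESeq2, 0 with the replicate number as a block, 0 without both knockout uteri 1 and 5, and 0 to 2 when single uteri were left out. Other normalizations and filters left it at 1. Fgf9 kept its direction in every alternative. The count of pathway genes past the threshold was 14, ran from 10 to 20 over the alternatives that kept all 10 uteri, and was 9 to 15 when single uteri were left out. Without both knockout uteri 1 and 5 the log2 fold change turned for Fgf2 to -0.12, for Fgfr2 to 0.36 and for Ccnd1 to -0.25. Leaving out single uteri moved Fgfr2 from -0.26 to 0.11, Ccnd1 from -0.26 to 0.27 and Spred1 from -0.10 to 0.052, and turned none of the other genes for which these fits were recorded. The genes named after their values were seen were not among them. The cause was not tested, apart from the smaller number of samples.

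The replicate numbers are shared between genotypes, but the labels tie them to no litter or day, and same-numbered uteri deviated together with correlations of 0.05, 0.09, -0.16, 0.05 and 0.22, so the numbers were not taken as pairs. With the replicate block the log2 fold change of Fgf9 was 1.38 with an edgeR adjusted p of 0.0654, and 1704 of all genes were called in place of 2438. The block also ended the calls of Etv1 (edgeR adjusted p of 0.0673), Hras (0.0730), Ptch1 (0.0674) and Sdc1 (0.0940). Fgf9, Fgf18 and Fgfr4 rest on 53 to 427 counts per library, which limits their precision.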
